A study of Saccharomyces cerevisiae with 6 samples.

Results

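The C/D box small nucleolar RNAs (snoRNAs) of Saccharomyces cerevisiae were followed in an RNA co-immunoprecipitation sequencing (RIP-seq) experiment with J2, an antibody against double-stranded RNA (dsRNA). The members were taken by name from a list of yeast C/D box snoRNA genes, and 47 of the 47 names were found among the 15753 features of the table. Total RNA of cells labelled wild type S288C, grown at 25 °C, was used for both groups, so that no allele or treatment separates them. The 3 J2 eluate libraries hold RNA that stayed on the beads when 90 µg RNA was incubated with 3 µg J2 for 120 min, and the 3 J2 unbound libraries hold the RNA still in the supernatant once a further round with new antibody and beads had been done. The comparison asks which RNAs the dsRNA antibody holds back. Recovered counts, added up over all features, summed to 43141091, 27777440 and 19871214 in eluates 1, 2 and 3. In unbound libraries 1, 2 and 3 they summed to 23741359, 18645818 and 27010153. All levels below are normalised counts, that is reads divided by a size factor per library. A value is low where it rests on few reads, and 3 counts, the floor used here, correspond to between 1.47 and 2.55 in the eluates and between 3.87 and 5.31 in the unbound libraries.

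C/D box snoRNAs are guide RNAs of the nucleolus. The conserved C and D boxes near the ends of each RNA are bound by Snu13, Nop56, Nop58 and the methyltransferase Nop1, and a stretch upstream of a D box or D' box pairs with ribosomal RNA (rRNA) and selects the nucleotide to receive a 2'-O-methyl group. A few members do other work, as U3 and U14 are needed to cut the rRNA precursor, and snR4 and snR45 guide acetylation of 18S rRNA by Kre33. Yeast members are transcribed from single genes, from introns of protein-coding genes or as polycistronic precursors that the endonuclease Rnt1 and the exonucleases Rat1, Xrn1 and Rrp6 trim to size.

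The coordinates of all 47 members in the table equalled those of the R64 (sacCer3) annotation. RefSeq notes described 45 of them as C/D box snoRNAs and named the snR17a and snR17b genes as U3. The C box letters TGATGA began within the first 25 bases of 37 members, the D box letters CTGA lay within the last 20 bases of 45, and 37 held both, whereas none of 29 H/ACA box snoRNAs (0 of 29) held both by the same search. The sequences of 5 members are printed from the R64 genome with the boxes in capitals. snR53, snR62 and snR67 were the 3 members higher in the eluates, and snR190 and snR128 (U14), from a shared precursor, were among the 5 with the lowest fold changes.
snR53: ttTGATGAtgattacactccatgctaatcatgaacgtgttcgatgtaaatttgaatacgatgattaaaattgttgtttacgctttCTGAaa
snR62: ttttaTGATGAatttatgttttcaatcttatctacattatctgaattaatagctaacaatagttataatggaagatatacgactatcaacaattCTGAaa
snR67: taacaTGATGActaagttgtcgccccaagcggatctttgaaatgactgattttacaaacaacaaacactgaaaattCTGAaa
snR190: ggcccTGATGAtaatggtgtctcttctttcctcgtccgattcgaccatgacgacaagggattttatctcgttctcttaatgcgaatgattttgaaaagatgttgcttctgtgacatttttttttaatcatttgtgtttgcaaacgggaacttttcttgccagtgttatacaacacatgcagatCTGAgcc
snR128: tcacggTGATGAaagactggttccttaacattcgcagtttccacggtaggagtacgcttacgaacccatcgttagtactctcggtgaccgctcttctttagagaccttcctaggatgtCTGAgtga
All 5 of these carried both boxes, with C boxes that began at base 3 in snR53 and at base 6 in snR62 and snR67, against base 6 in snR190 and 7 in snR128. In predicted minimum free energy folds, the longest uninterrupted helix had 10 bp in snR53, 6 bp in snR62 and 5 bp in snR67, against 13 bp in snR190 and 7 bp in snR128. Over the 47 members this length ran between 5 and 13 bp with a median of 7. The RefSeq notes gave 55 rRNA target nucleotides for 43 members, 53 of which had the noted base in the reference rRNA. For 38 of all 55 targets the snoRNA held at least 8 complementary bases with a D or D' box, 1 mismatch allowed, at the 5-base spacing. Their duplexes had a median of 11 and a maximum of 16 bp.

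Most C/D box snoRNAs were lower in the J2 eluates. Of 39 members with a mean normalised count above 40, 34 were called lower in the eluates, 3 higher and 2 in neither direction, with limma and an adjusted p threshold of 0.05 over all 15753 features. Over all 10188 features above the same minimum, 48.0% were called lower and 34.6% higher. The eluate and unbound values did not overlap in 39 members, with 36 lower and 3 higher in the eluates, where 49.2% of all features lay apart in the lower and 35.4% in the higher direction. The median log2 fold change, eluate over unbound, was −2.58 for the members and −0.46 for all features. Within the same-numbered pairs of libraries 1, 2 and 3, the members' medians were −2.52, −3.03 and −2.80. Without the minimum of 40, 39 of 47 were lower, 3 higher and 5 not called, where 34.4% of all features were lower and 38.7% higher. The 8 members at or below the minimum were snR58, snR61, snR65, snR71, snR72, snR78, snR79 and snR87, the nearest being snR61 with a mean of 36.2, and the nearest members above it were snR54 with 46.7 and snR53 with 48.4.

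The zero point of these fold changes depends on the scaling. The median over all features was −0.46 with the deposited size factors, −0.30 with TMM, 0.45 when libraries were scaled to equal totals and 0.85 when only protein-coding features set the scale, and the share of higher among all calls was 41.8%, 44.8%, 60.97% and 70.6% in this order. With those scalings 34, 33, 29 and 28 members were lower and 3 were higher each time. Relative to the median of all features, the median member lay at −2.12 log2 units with the deposited scaling and TMM, and at −2.14 with the other scalings. The total RNA of each fraction was not measured in these files, so a lower share of a library and a smaller amount in the fraction cannot be told apart.

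**Figure D1:**
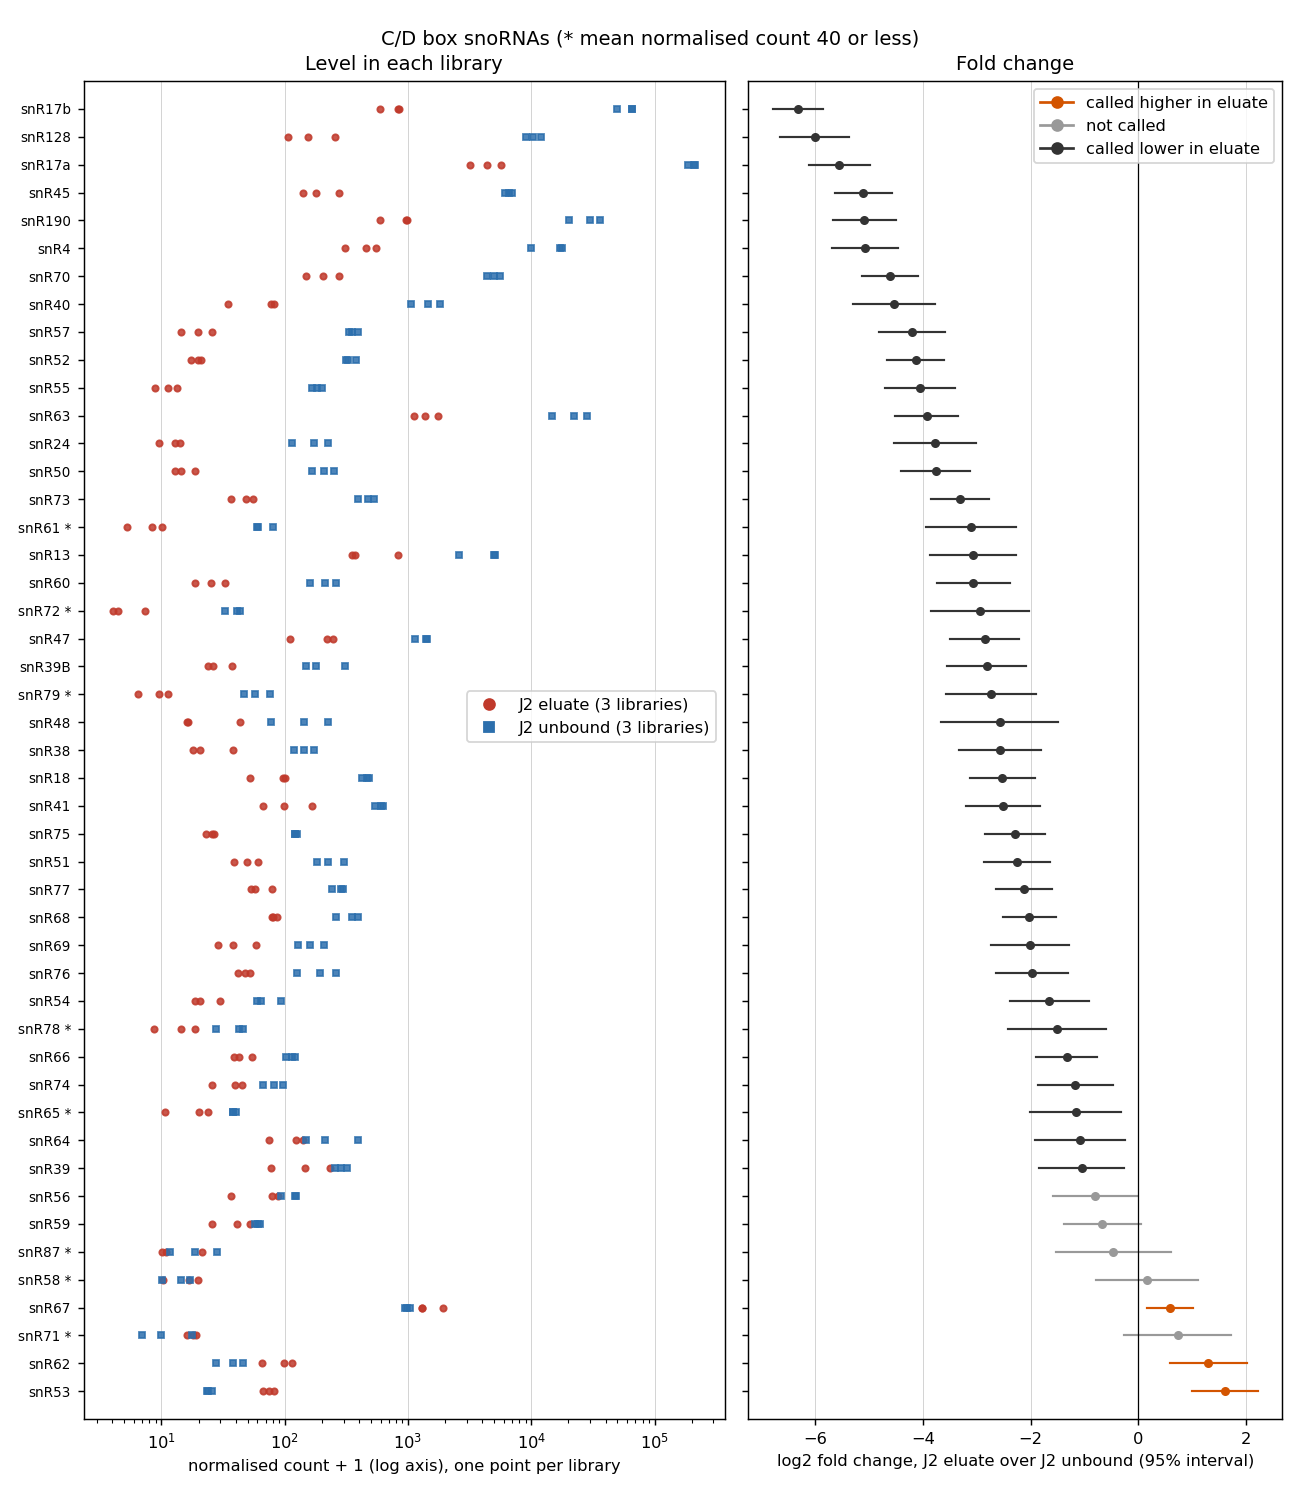
Left, normalised count plus 1 (log axis) of each of the 47 members in the 3 J2 eluate libraries (circles) and 3 J2 unbound libraries (squares); right, log2 fold change with its 95% interval from limma. The members run downwards from snR17b at −6.33 to snR53 at 1.62, and asterisks mark the 8 with a mean of 40 or less.

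snR53, which guides methylation of 18S rRNA at position 796, had the highest fold change. It was read at 81.6, 66.0 and 73.2 in the eluates, against 22.3, 23.0 and 24.5 in the unbound libraries. All eluate values lay above all unbound values, by a mean of 3.16-fold, and the log2 fold change was 1.62 ± 0.27 (SE, adjusted p = 0.000436, n = 3 each). snR62, a guide for position 1888 of 25S rRNA, had 96.8, 64.2 and 114 in the eluates and 26.8, 37.2 and 45.1 in the unbound libraries. These groups were also apart, with a log2 fold change of 1.30 ± 0.32 (adjusted p = 0.00447, n = 3 each). snR67, which guides positions 2619 and 2724 of 25S rRNA, had 1913, 1303 and 1297 in the eluates and 1047, 937 and 973 in the unbound libraries. Its difference was smaller, 0.59 ± 0.19 (adjusted p = 0.0186, n = 3 each), with groups apart, and was not called without eluate 1 (0.40, adjusted p = 0.0628) or without unbound 2 (0.55, adjusted p = 0.0631). snR53 and snR62 were called higher under each of the 14 alternatives run.

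The members called in neither direction were 5 when all 47 are counted. snR56, for position 1428 of 18S rRNA, had 87.5, 35.7 and 77.5 in the eluates and 121, 122 and 91.5 in the unbound libraries, and every eluate lay below every unbound value. Its log2 fold change was −0.81 ± 0.35 (adjusted p = 0.057), and with the replicate number as a block it was called lower (adjusted p = 0.0372), as it was without eluate 1 (0.0367) or eluate 3 (0.0465). snR59, for position 807 of 25S rRNA, had 51.1, 39.97 and 24.7 in the eluates and 59.6, 56.7 and 61.9 in the unbound libraries, also apart, with a log2 fold change of −0.67 ± 0.32 (adjusted p = 0.0855), and it was called lower without eluate 1 (adjusted p = 0.04996). Under total count or protein-coding scaling the values of snR56 and snR59 were above 0. The other 3 had means below 40. snR58 was read at 15.7, 18.8 and 9.37 in the eluates and 13.4, 15.9 and 9.02 in the unbound libraries (0.16 ± 0.43, adjusted p = 0.739). snR71 was read at 18.2, 15.1 and 17.03 in the eluates and 5.96, 8.86 and 16.8 in the unbound libraries (0.73 ± 0.44, adjusted p = 0.159). snR87 was read at 9.83, 9.08 and 20.4 in the eluates and 17.9, 10.6 and 27.1 in the unbound libraries (−0.47 ± 0.48, adjusted p = 0.394). The groups of these 3 overlapped, and a few reads decide such values. snR71 was called higher without unbound 3 (1.10, adjusted p = 0.0424), with total count scaling (1.57) and with protein-coding scaling (1.94), and snR58 with protein-coding scaling (1.38, adjusted p = 0.0165).

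Among called members the smallest decreases were those of snR39, snR64, snR65 and snR74. snR39 had 232, 144 and 75.8 in the eluates and 284, 253 and 318 in the unbound libraries, a log2 fold change of −1.05 ± 0.35 (adjusted p = 0.0216). snR64, for position 2337 of 25S rRNA, had 139, 73.9 and 123 in the eluates and 211, 147 and 394 in the unbound libraries (−1.09 ± 0.37, adjusted p = 0.0231). snR74, for position 28 of 18S rRNA, had 38.8, 24.8 and 44.3 in the eluates and 80.4, 65.5 and 96.7 in the unbound libraries (−1.17 ± 0.31, adjusted p = 0.00693). snR65, below the minimum of 40, had 19.2, 9.69 and 23.0 in the eluates and 37.2, 38.97 and 37.4 in the unbound libraries (−1.17 ± 0.38, adjusted p = 0.0188). In all 4 the groups were apart by little, and with protein-coding scaling their values were above 0 (between 0.0928 and 0.26) and not called. With total count scaling none of the 4 was called (between −0.29 and −0.14), and with TMM snR39 was not (−0.89, adjusted p = 0.055). snR39 also lost its call without eluate 2 (adjusted p = 0.0512), unbound 1 (0.0556) or unbound 3 (0.0671), snR64 without eluate 2 (0.0986) or unbound 3 (0.0847), and snR65 without eluate 2 (0.08).

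snR39 and snR59 lie in introns of the paralogous ribosomal protein genes RPL7A and RPL7B and guide the same nucleotide, position 807 of 25S rRNA, while snR39B guides position 805. Their sequences are shown to compare the guides, with boxes in capitals.
snR39: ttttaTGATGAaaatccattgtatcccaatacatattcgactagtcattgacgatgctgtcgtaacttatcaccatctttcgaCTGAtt
snR59: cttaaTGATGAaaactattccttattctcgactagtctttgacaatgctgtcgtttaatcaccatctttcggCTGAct
snR39B: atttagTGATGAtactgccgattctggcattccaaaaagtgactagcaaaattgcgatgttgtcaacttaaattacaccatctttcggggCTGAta
The run before the D box that is complementary to 25S rRNA was tcaccatctttcg (13 bases) in snR39, tcaccatctttcgg (14 bases) in snR59 and caccatctttcggg (14 bases) in snR39B. snR39B was read at 25.1, 23.0 and 36.6 in the eluates and 179, 149 and 307 in the unbound libraries. Its log2 fold change was −2.82 ± 0.33 (adjusted p = 3.43e-05), against −1.05 in snR39 and −0.67 in snR59, and the differences between these members were not tested.

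U3, U14 and snR190, which shares the precursor of U14, were among the lowest in fold change. U3, the box C/D RNA that base pairs with the rRNA precursor in the small subunit processome, is encoded by snR17a and snR17b, each with an intron. snR17a had 4394, 3211 and 5732 in the eluates and 214394, 210091 and 187054 in the unbound libraries. snR17b had 824, 590 and 851 in the eluates and 65597, 66228 and 49325 in the unbound libraries. The unbound libraries held 45.9 times as much snR17a and 80.0 times as much snR17b as the eluates, with log2 fold changes of −5.56 ± 0.25 (adjusted p = 2.36e-07) and −6.33 ± 0.21 (adjusted p = 2.23e-07). Only 88.1% of 50-base windows of each U3 gene were unique in the genome, where 45 of the 47 members were unique throughout, so reads could be split between the copies. snR128 (U14), required to release 18S rRNA, had 154, 105 and 255 in the eluates and 11903, 10418 and 9101 in the unbound libraries (−6.01 ± 0.29, adjusted p = 2.81e-07). snR190, encoded 69 bases upstream of snR128, had 974, 594 and 959 in the eluates and 30049, 36004 and 20388 in the unbound libraries (−5.09 ± 0.26, adjusted p = 3.3e-07). Its note calls it a predicted methylation guide for position 2395 of 25S rRNA. In all 4 of these members the highest eluate value was far below the lowest unbound value.

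Both acetylation guides followed the same direction. snR45, for position 1773 of 18S rRNA, had 177, 139 and 274 in the eluates and 6590, 6976 and 6142 in the unbound libraries (−5.11 ± 0.24, adjusted p = 2.56e-07). snR4, for position 1280, had 458, 307 and 553 in the eluates and 17168, 17732 and 9996 in the unbound libraries (−5.08 ± 0.28, adjusted p = 4.17e-07). Both had groups far apart, at 33.4-fold and 34.1-fold more in the unbound libraries.

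Methylation guides other than snR128 and snR190 spread more widely. Those 2 were grouped with U3 and are left out of the counts by rRNA. The notes also name snR128 (−6.01) as a guide for position 414 of 18S rRNA, and snR190 (−5.09) as a predicted one for 25S rRNA. Of the 20 guides for 25S rRNA alone above the minimum, 17 were lower, 2 higher (snR62 and snR67) and 1 not called (snR59), with a median log2 fold change of −2.41 and a range between −3.93 (snR63) and 1.30 (snR62). Of the 9 guides for 18S rRNA alone, 7 were lower, 1 higher (snR53) and 1 not called (snR56), with a median of −2.13 and a range between −4.61 (snR70) and 1.62 (snR53). All 4 guides that serve both rRNAs, snR40, snR47, snR51 and snR52, were lower (median −3.50). For comparison, the medians were −5.78 for the 2 U3 genes, snR128 and snR190 together and −5.10 for the 2 acetylation guides.

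The reads of the class were dominated by U3. Shares of all counts below refer to the sum over all features. Some features overlap on the same strand, so a read can enter that sum more than once. The 47 members took 0.0645%, 0.0544% and 0.0812% of all counts in the eluates and 1.10%, 1.196% and 0.903% in the unbound libraries, 15.98-fold more in the unbound means. snR17a alone held 36.3% ± 4.9 of the C/D box counts in the eluates and 56.0% ± 3.2 in the unbound libraries (SD, n = 3 each). Without both U3 genes the shares averaged 0.0380% ± 0.0055 in the eluates and 0.297% ± 0.068 in the unbound libraries (SD, n = 3 each), 7.81-fold more in the unbound libraries. The members shorter than 120 bases, all of them methylation guides, averaged 0.0170% ± 0.0018 of counts in the eluates and 0.0276% ± 0.0025 in the unbound libraries (SD, n = 3 each), 1.63-fold more in the unbound libraries, with groups apart. snR67 held 49.8%, 51.9% and 43% of the counts of these short members in the eluates and 10.6%, 11.3% and 9.35% in the unbound libraries.

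Length and level went along with the fold change. All 10 members of 120 bases or more were lower, with a median log2 fold change of −5.09, and of 29 shorter members above the minimum 24 were lower, 3 higher and 2 not called, with a median of −2.29. Over the 39 members, length and log2 fold change had a Spearman rho of −0.61, among the 29 under 120 bases rho was −0.30, and over all 10188 features above the minimum rho was −0.13. The level in the unbound libraries per kb of length had a rho of −0.75 with the fold change over the 39 members and −0.75 over all features, and among the 29 members under 120 bases it was −0.52. These are descriptions without a test, since the points come from the same 6 libraries, the unbound level enters both axes, and length and level were themselves related (rho = 0.63). The library preparation selects polyadenylated RNA in its usual form and includes a size selection, while mature C/D box snoRNAs are short and lack a poly(A) tail, and the part of this in the fold changes was not tested.

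**Figure D2:**
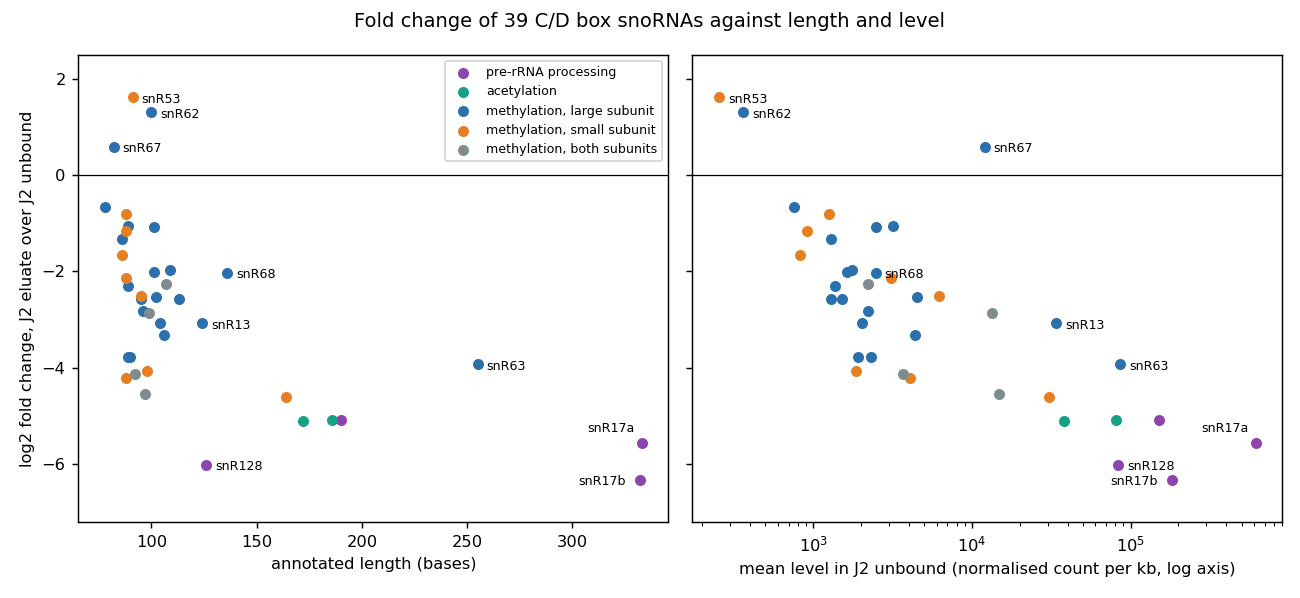
Log2 fold change (J2 eluate over J2 unbound) of the 39 members above the minimum against annotated length in bases (left) and against the mean unbound level in normalised counts per kb, log axis (right), each point 1 snoRNA coloured by role. The 10 members of 120 bases or more all lie below −2, and snR67 sits above 0 at a level where other members lie below −2.

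Of the 14 polycistronic members above the minimum, 12 were lower and 2 higher, with a median of −2.40, against −3.07 for 19 members with genes of their own and −2.09 for 6 intronic ones. The members of each of the 5 polycistrons were called in 1 direction. Both higher members of a polycistron, snR67 and snR53, are encoded in tandem on chromosome V (chrV:61352-61433 and chrV:61699-61789, plus strand, R64). The spacer feature between them, trimmed about 50 bases from either snoRNA so that few reads can touch both, had 1717, 1184 and 1086 in the eluates and 847, 737 and 737 in the unbound libraries. It was higher with groups apart, by 0.75 ± 0.20 (adjusted p = 0.00688), and the 316-base feature before snR67 was higher too, with 300, 271 and 316 in the eluates and 200, 198 and 140 in the unbound libraries (0.73 ± 0.21, adjusted p = 0.00976). Per kb, the spacer reached 7958 in the eluates and 4633 in the unbound libraries, beside 18343 and 12019 for snR67, and 809 and 256 for snR53. The spacer thus stood at a higher level per kb than snR53 itself in both fractions.

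Of the other polycistrons, those on chromosomes XIII and XII have spacer features in the table, and these were lower like the members. All 7 members of the longest cluster on chromosome XIII, snR78, snR77, snR76, snR75, snR74, snR73 and snR72, were lower, with log2 fold changes between −3.32 (snR73) and −1.17 (snR74). The 3 spacer features there were lower by −1.36, −1.35 and −0.96. On chromosome XII, snR57, snR55 and snR61 were lower, with log2 fold changes of −4.21, −4.06 and −3.11 and spacers at −4.17 and −3.35. snR57 was read at 24.6, 13.3 and 18.7 in the eluates and 391.6, 353 and 330 in the unbound libraries, and the spacer after it at 18.7, 13.3 and 11.1 in the eluates and 268, 308 and 237 in the unbound libraries. Per kb, the spacer stood at 326 in the eluates and 6162 in the unbound libraries, beside 215 and 4068 for snR57. The spacer has 44 bases, fewer than the 50 of a read, and snR57 has 88, so these levels per kb cannot be compared closely. In all, 5 of the 6 spacers were called lower and 1, that of snR67 and snR53, higher. With protein-coding scaling the 3 spacers on chromosome XIII were not called (−0.077, −0.21 and 0.31), 2 of the 6 were lower and that of snR67 and snR53 was higher.

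On chromosome XVI, the 164-base snR70 had a log2 fold change of −4.61, against −2.51 for snR41 and −2.26 for snR51 from the same precursor, all called lower. snR70 had 202, 148 and 276 in the eluates and 4975, 5621 and 4391 in the unbound libraries. snR41 had 97.3, 65.4 and 167 in the eluates and 536, 604 and 622 in the unbound libraries, and snR51 had 48.2, 37.5 and 59.6 in the eluates and 304, 223 and 183 in the unbound libraries. The groups were apart in all 3, and snR70 was the most abundant of them per kb in the unbound libraries (30459, against 6184 for snR41 and 2212 for snR51). The differences between members were not tested.

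**Figure D3:**
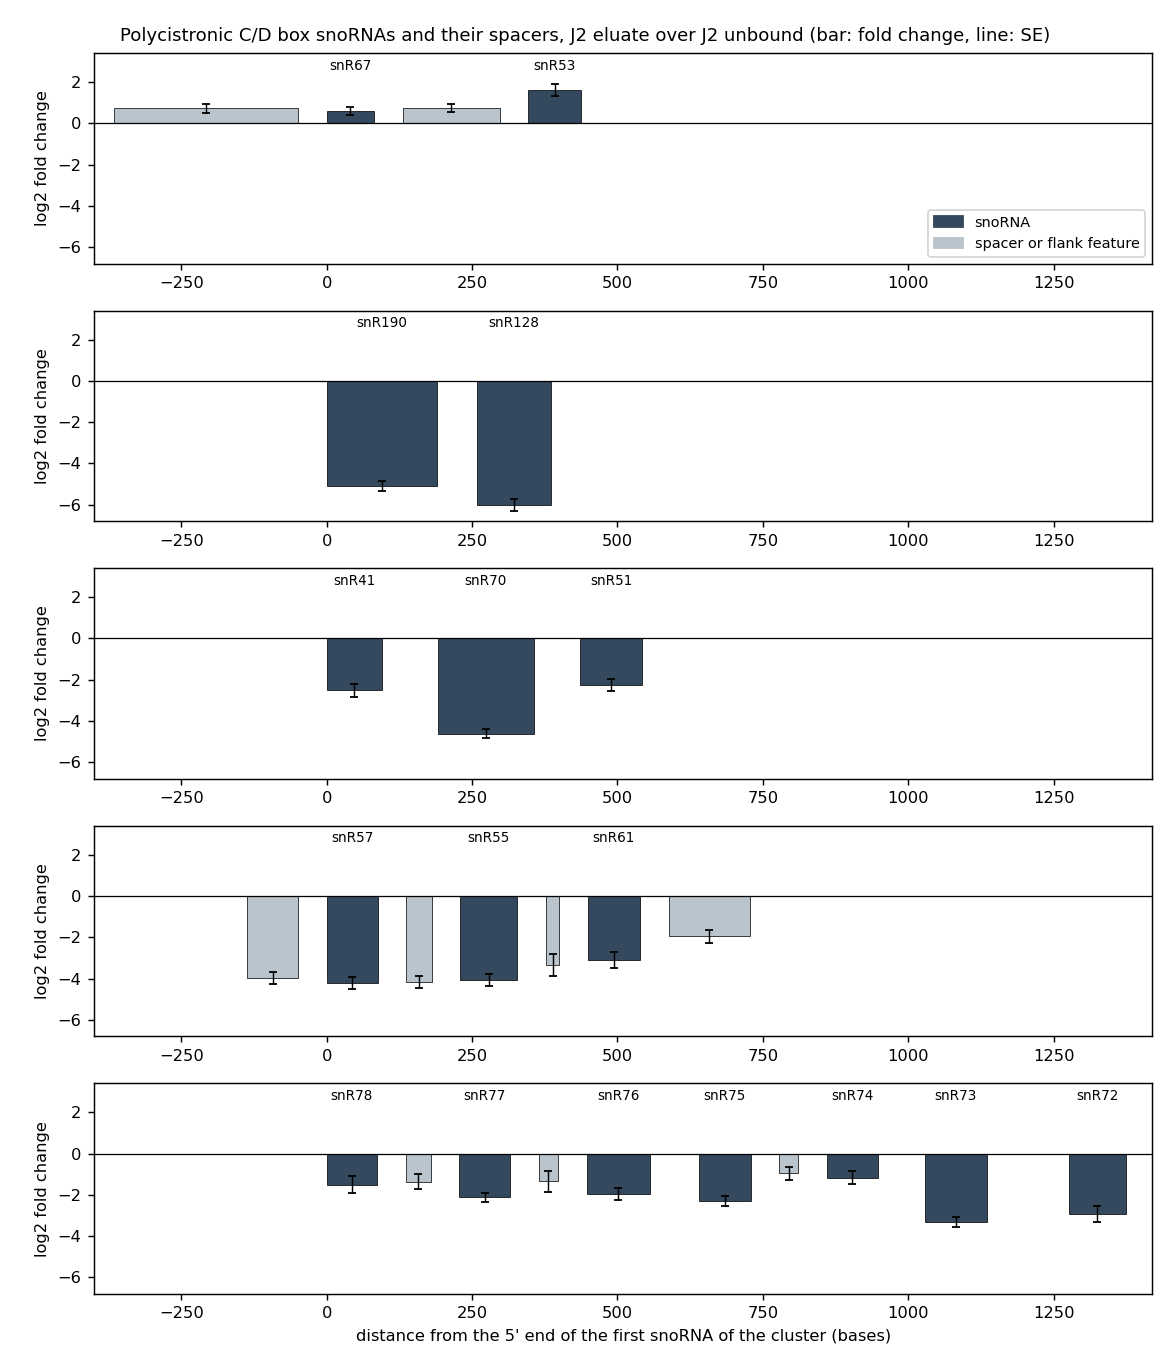
Log2 fold change (J2 eluate over J2 unbound, bar; SE, line) of the members of the 5 polycistrons (dark) and of the spacer and flank features on their strand (light), drawn at their distance in bases from the 5' end of the first snoRNA. Bars of the snR67 and snR53 cluster, spacer and flank included, lie above 0 (0.59 to 1.62), and those of the other 4 clusters lie below 0; a flank feature of 2 bases after snR53 is not drawn.

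The 6 intronic members did not all share the direction of their host mRNAs, whose annotated segments leave out the introns. snR24 was lower (11.2 in the eluates against 170 in the unbound libraries on average, −3.77 ± 0.34) and so was its host ASC1, a ribosomal protein gene (−4.04 ± 0.20). snR18 (81.8 against 458, −2.53 ± 0.27) and its host EFB1, which encodes a translation elongation factor subunit, were both lower (EFB1 −2.65 ± 0.29). snR54 (22.0 against 71.3, −1.65 ± 0.33) and its host IMD4 (−0.87 ± 0.29, adjusted p = 0.019) were lower as well, though with protein-coding scaling neither was called (snR54 −0.37, adjusted p = 0.298, and IMD4 0.44), nor was snR54 with total count scaling (adjusted p = 0.0537). snR38 was lower (24.6 against 145, −2.57 ± 0.34), while TEF4, which also encodes an elongation factor subunit, was not called (−0.29 ± 0.30, adjusted p = 0.401) and was higher with protein-coding scaling (1.02).

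RPL7A mRNA was higher, with 83135, 54727 and 45579 in the eluates and 19056, 16253 and 27384 in the unbound libraries (1.54 ± 0.30, adjusted p = 0.00102), and groups were apart. snR39 in its intron was lower. RPL7B had 7909, 5230 and 1844 in the eluates and 2850, 2448 and 3766 in the unbound libraries, with overlapping groups (0.51 ± 0.44, adjusted p = 0.315), and snR59 in its intron was not called. With protein-coding scaling RPL7B was higher (1.83) and snR39 was above 0 and not called. In both pairs eluate 1 was the highest and eluate 3 the lowest of the eluates for snoRNA and host alike. This order is not particular to these pairs. The hosts TEF4 and IMD4 had it too, while their snoRNAs snR38 and snR54 were lowest in eluate 2. snR67, which has no host gene, also had it. Reads of an intronic snoRNA and of the unspliced host intron around it cannot be told apart here.

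All 47 members had an annotated feature on the opposite strand, which covered at least 50% of the member in 42 of them. The counts kept the strands apart, since antisense2613, which spans the whole of snR17a on the other strand, had 134, 127 and 140 in the eluates and 10.4, 67.3 and 16.8 in the unbound libraries, where snR17a itself had 187054 or more in the unbound libraries. Of 43 opposite features that do not code for protein, 22 had a mean above 40 and 21 of these were higher in the eluates and none (0) lower, with a median log2 fold change of 3.36, where 81.7% of all antisense RNAs above 40 were higher. The exception, antisense3418 opposite snR24, had a log2 fold change of 1.19 (adjusted p = 0.076). Without the minimum, 41 of 43 were higher, against 66.5% of all antisense RNAs. Members and opposite RNAs of the same locus thus lay on different sides of 0 at most loci. The 81.7% and 66.5% cover RNAs labelled antisense, while the 43 also hold features with other labels, such as CUT432, SUT678 and XUT_11R-166. These shares come from unlike sets and cannot be compared closely. SUT678 and XUT_11R-166 also overlap each other opposite snR69, both with 61.05, 60.23 and 43.82 in the unbound libraries, so they are not separate cases.

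antisense3560, which runs opposite snR72, snR73 and snR74, had 238, 188 and 243 in the eluates and 4.47, 7.09 and 2.58 in the unbound libraries (5.36 ± 0.36, adjusted p = 1.09e-06). The unbound values rest on 3, 4 and 2 counts. The log2 ratio per kb of member over antisense3560 was −3.28 for snR72, −0.0015 for snR73 and −0.086 for snR74 in the eluates, against 5.26 for snR72, 8.75 for snR73 and 6.50 for snR74 in the unbound libraries. snR4-as, opposite snR4, had 101, 86.0 and 262 in the eluates and 4.47, 5.31 and 5.15 in the unbound libraries (4.47 ± 0.44, adjusted p = 1.07e-05), and there snR4 stood above its antisense RNA per kb in both fractions, by 0.73 log2 units in the eluates and 10.7 in the unbound libraries. The antisense RNAs opposite the higher members snR67 and snR53 had means below 40 in the eluates and unbound libraries, 21.6 and 0.50 for antisense155 and 24.5 and 4.99 for antisense156. They were called higher as well (4.05 and 2.43).

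snR62 and snR71, which were not lower, lie opposite protein-coding features. CUE5, which encodes a ubiquitin-binding autophagy receptor, covers snR62 entirely and was higher, with 3974, 3589 and 3930 in the eluates and 2180, 1936 and 2909 in the unbound libraries (0.73 ± 0.19, adjusted p = 0.00554). On the strand of snR62, the 80-base feature 50 bases beyond its 3' end had 161, 117 and 187 in the eluates and 25.3, 17.7 and 42.5 in the unbound libraries (2.47 ± 0.35, adjusted p = 0.000138). That feature, antisense2527, lies like snR62 within the span of CUE5 on the opposite strand, and drew more reads than the longer snR62 in every eluate. The sources used here do not explain this kind of name. The feature 50 bases before snR62 on the same strand, also opposite CUE5 and with a mean below 40, was not called (−0.31 ± 0.37, adjusted p = 0.456). It had 13.8, 10.9 and 11.9 in the eluates and 17.9, 14.2 and 14.2 in the unbound libraries. LIN1, opposite snR71, was higher (2.62 ± 0.17, adjusted p = 9.14e-07), and so was Unit169, which spans snR71 on its own strand (1.37 ± 0.22, adjusted p = 0.000342). YOL097W-A, opposite snR58, had 769, 586 and 790 in the eluates and 29.8, 21.3 and 20.6 in the unbound libraries (4.85 ± 0.24, adjusted p = 3.09e-07). YPR092W was higher as well (4.94 ± 0.52, adjusted p = 1.77e-05), yet it lies opposite 100% of snR51 and 59.8% of snR70, both called lower. Other protein-coding features were lower, among them RPS14A opposite snR65 (−3.72) and RPS8A opposite snR56 (−2.11). Of 11 in all, 6 were lower, 4 higher and 1 not called, where 74.4% of all protein-coding features above 40 were lower.

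**Figure D4:**
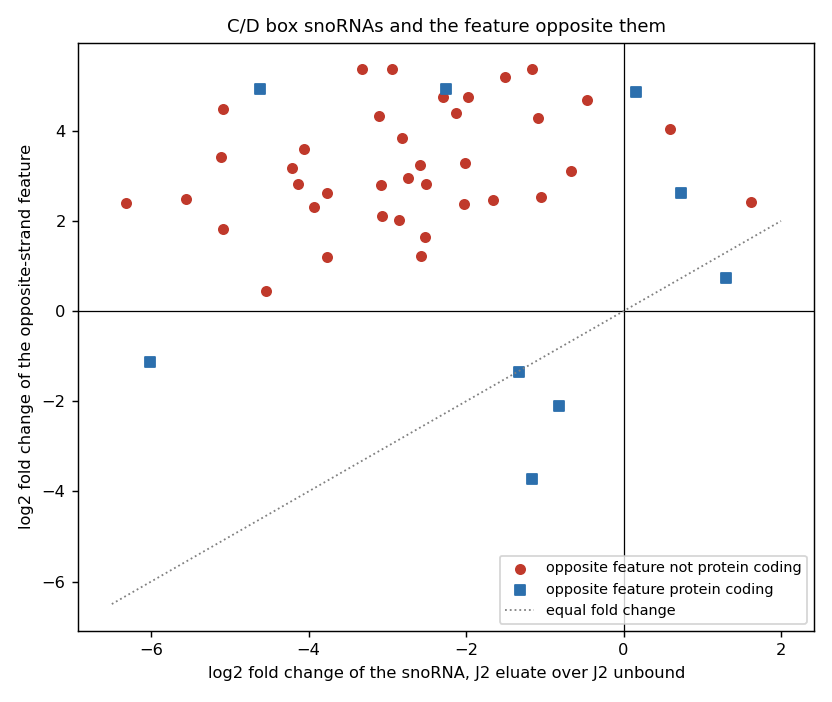
Log2 fold change (J2 eluate over J2 unbound) of each member (x axis) and of the feature that covers most of it on the opposite strand (y axis), which is a protein-coding feature (squares) or not (circles); the dotted line marks equal values. Circles all lie above 0 on the y axis, while most members lie below 0 on the x axis.

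In all, 5 members shared bases with another feature of their own strand, and reads there cannot be assigned to either. These pairs were snR17a with IRC13, snR60 with YJL047C-A, snR71 with Unit169, snR73 with YMR013W-A and snR87 with an intergenic feature. IRC13 had a log2 fold change of −5.61, beside −5.56 in snR17a. Without the 5 members, 31 of 36 above the minimum were lower and 3 higher, with a median of −2.55.

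Listed mRNAs of the snoRNA pathway and of the intron hosts were mostly lower, like most protein-coding features. Of 35 genes matched out of 36 listed, 29 were lower, 1 higher (the host RPL7A) and 5 not called. Over all protein-coding features above 40, 74.4% were lower. The 35 include the 6 intron hosts, of which 3 were lower and 1 higher. With protein-coding scaling 21 of the 35 were lower and 7 higher, where 2364 of all 10188 features above 40 were lower and 5675 higher. NOP56 (1.18), RSA1 (1.74) and TGS1 (1.59) were then called higher. So was, with its direction turned, the assembly factor gene TAH1 (0.62, adjusted p = 0.0178, against −0.69 and called lower with the deposited scaling). IMP4 (−0.19), KRE33 (−0.26), HAS1 (−0.05), SNU13 (−0.25), RAT1 (0.28), NAB3 (−0.32) and IMD4 (0.44) were then not called. Of the core proteins, NOP1 (−2.74), NOP58 (−1.80) and SNU13 (−1.57) were lower, and NOP56 had 36049, 23697 and 23763 in the eluates against 31633, 29765 and 28360 in the unbound libraries (−0.13 ± 0.23, adjusted p = 0.624). Of 7 assembly factors 6 were lower, with PIH1 the lowest at −3.27, and RSA1, which helps assemble the particle, was not called (0.43 ± 0.19, adjusted p = 0.0644). Of 10 processing enzymes 9 were lower, including RNT1 (−2.60), SEN1 (−2.47) and DBR1, the debranching enzyme that frees intronic snoRNAs (−2.27), while TGS1, which trimethylates snoRNA caps, was not called (0.27 ± 0.15, adjusted p = 0.124). All 6 genes for U3 particle proteins were lower, SOF1 (−3.63), RRP9 (−2.94) and IMP3 (−2.46) most, and so were KRE33 (−1.58) and the helicase gene HAS1 (−1.37).

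The other small nucleolar and nuclear RNAs were set beside the C/D box class as classes alone. All 29 H/ACA box snoRNAs, which guide pseudouridylation, were lower (median −4.45, range −5.90 to −2.16), and all 6 spliceosomal small nuclear RNAs were lower (median −3.64). With protein-coding scaling 28 of the 29 and 5 of the 6 were called lower, and none (0) higher. H/ACA box snoRNAs have a median length of 204 bases in the table and C/D box members one of 99, and the median of the 10 longer C/D box members was −5.09. With the deposited scaling, no member of the H/ACA class was called higher or left uncalled (0 of 29), whereas 5 of 39 C/D box members above the minimum were. This difference between the classes was not tested.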

How the data were processed

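Per the study's methods, the authors aligned single reads of 50 bases to sacCer3 with STAR and counted them with featureCounts (Subread 1.5.0-p1) over Ensembl features with added UTRs and unstable transcripts. The strand setting was not given in the sources used here. What the authors deposited for each feature is a signal, the counts divided by DESeq2 (1.24.0) size factors. Their deposited group means, fold changes and p-values were not used. The replicates were described as repeats of the whole experiment.

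The table's 47860 lines were reduced to 15753 features. In every library 100% of the values were whole reads within 0.05 reads once divided by the value of 1 read. limma 3.58.1 in R 4.3.3 (lmFit, eBayes with a trend) was run on log2(normalised count + 1), so changes of low features are understated, with Benjamini-Hochberg adjustment over all features, and an adjusted p under 0.05 was a call. Counts of calls used features with a mean above 40, as in the methods. It was tested on simulated data first. The main test was limma because the values are not raw counts. On the recovered reads, DESeq2 1.42.0 called 4872 features lower and 3525 higher, and edgeR 4.0.16 called 4859 and 3524, where limma called 4891 and 3520. Intervals are 95% and cover the spread of 3 libraries per group, and the floor of 3 counts covers counting error alone.

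Same-numbered eluate and unbound libraries deviated together from their group means (r = 0.23, 0.32 and 0.30 over 10188 features for numbers 1, 2 and 3). The numbers were taken as pairs only for the medians per pair and in the alternative with a replicate block. The main limma fit was unpaired, and the SE, adjusted p and calls above come from it unless an alternative is named. The members, their roles and hosts, and the gene lists were chosen with earlier results of these data known. Named were the members called higher or not called, the 5 lowest, the 5 called members nearest 0, U3, snR128, snR190, the acetylation guides, the intronic members with hosts and the polycistrons. Other members were chosen after their values were seen where a count or range needed a name. Sequences came from the RefSeq R64 genome, and folds from RNAfold 2.7.2. Of the pathway list 1 symbol did not match. Alternatives were other scalings and pseudocounts, count tests, the replicate block, no minimum, members without overlap, and each library left out. Leaving out the U3 genes was added after seeing the data.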

Additional observations from a re-analysis of the deposited data

How the results depend on the processing

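Over the settings tried, 28 to 36 members were lower and 2 or 3 higher (39 lower without a minimum), and the median log2 fold change stayed below 0. It was −1.69 with total count scaling and −1.30 with protein-coding scaling, and between −2.92 and −2.36 with each library left out, where 32 to 36 members were lower and 2 to 3 higher. Without the U3 genes, an alternative chosen after seeing the data, 32 were lower and the median was −2.57. The share of counts was 0.0421% in the eluates and 0.473% in the unbound libraries without snR17a, and 0.0835% and 1.25% of protein-coding counts, both by construction. Of the 39 members above the minimum, 30 kept direction and side of the threshold in all 14 alternatives and 9 did not. Direction turned with total count scaling in snR56 (0.0911), snR59 (0.23) and snR87 (0.39), and with protein-coding scaling in snR39 (0.26), snR56 (0.48), snR59 (0.62), snR64 (0.22), snR65 (0.0928), snR74 (0.12) and snR87 (0.76). With each library left out, snR58 ranged between −0.051 (without unbound 3) and 0.43 (without eluate 3), and was −0.032 without eluate 2. The cause was not tested. With the replicate block 35 members were lower, snR56 being the added one, and no other call of a member changed. The minimum does not alter a single member's fit, so no such value is given. Members under 40 rest on few reads, and 3 libraries per group limit the precision of all.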
